A study of Mus musculus with 75 samples.

Results

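Sorted D1 nuclei from mice in withdrawal from repeated cocaine were compared with sorted D1 nuclei from mice that had received only saline, across all genes. The members were the 8 libraries of the D1_CS group and the 10 libraries of the D1_SS group, taken by their labels, 18 of the 75 libraries in all. D1_CS mice had received cocaine (20 mg/kg, intraperitoneal) once a day for 10 days, and D1_SS mice saline; after 30 days in the home cage both groups were given saline and were killed 1 h later. Both groups were male mice with 2 transgenes, a Cre-dependent green fluorescent protein joined to ribosomal protein L10a (LSL-eGFP::L10a) and Cre under the D1 dopamine receptor gene (D1-Cre). Nuclei were thus marked by the activity of a transgene, now or earlier in life, and the labels used here give no age. The nucleus accumbens was punched, nuclei were sorted by fluorescence, and total nuclear RNA was made into stranded libraries from low input. The labels do not say whether a library came from 1 mouse or from pooled mice, or which libraries were prepared together, so a p-value measures only the spread between libraries.

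The nucleus accumbens is a reward area of the ventral striatum, and most of its neurons are medium spiny neurons, inhibitory projection cells of 2 main kinds. D1 neurons carry the dopamine receptor that raises cyclic AMP and make substance P and dynorphin, and D2 neurons carry the receptor that lowers cyclic AMP and make enkephalin. A period of abstinence after repeated cocaine is known for stronger AMPA receptor transmission at accumbens synapses, altered dendritic spines and a transcriptional response that is primed for the next dose. The comparison asks which nuclear transcripts differ after that period, 1 h after saline and with no drug given on the last day. Nuclear RNA is rich in unspliced transcripts, so long genes with long introns give many counts, and mature messages of short genes give few.

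No gene passed the threshold between D1_CS and D1_SS. Of 37721 genes tested with edgeR's quasi-likelihood test over the 37 D1 libraries, 0 had an adjusted p under 0.05 (0% of genes), and the smallest adjusted p was 0.9999. At an unadjusted p under 0.05 there were 1071 genes with lower levels in D1_CS (2.84% of genes) and 133 with higher levels (0.353%). DESeq2 also called 0 genes, with 1977 at an unadjusted p under 0.05. One alternative, limma voom with library quality weights, called 16547 genes, of which 7304 rose and 9243 fell. The median log2 change of all genes was 0.06 (D1_CS minus D1_SS), with 22636 genes above 0 (60% of genes) and 15085 below 0 (40%). With RLE in place of TMM scaling the median was 0.20, so a change is to be read relative to these medians. The CPM values (counts per 1000000 of a library's total) of the groups did not overlap at all for 3 genes: Gm16433 and Gm44237 lay higher in every D1_CS library (0.0053% of genes) and Gm49331 lay lower in every one (0.00265%). These 3 genes were singled out after their values were seen, and they are predicted genes with no known role.

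The libraries themselves differed widely. Total counts ran between 4146700 and 26695612 in D1_CS and between 8736018 and 29845486 in D1_SS. The background share is the part of all counts that an even density over gene spans would give, set at the density over 1435 olfactory and vomeronasal receptor genes that are silent in brain. It was 63.5, 64.6, 10.2, 54.4, 65.3, 60.6, 70.7 and 63.2% in D1_CS 1 to 8. In D1_SS 1 to 10 it was 41.0, 51.2, 32.8, 49.2, 37.6, 28.6, 38.6, 60.5, 61.0 and 58.2%. The mean was 56.6 ± 19.3% in D1_CS (SD, n = 8) and 45.9 ± 11.8% in D1_SS (SD, n = 10), with p = 0.165 by a two-sided exact permutation test and an adjusted p of 0.593 over 12 library measures. Library D1_CS 3 stood apart from its group with the lowest background share, and it failed a quality rule by its correlation with the other D1 libraries. Library D1_CS 7 had the fewest counts of the 18 and failed the same rule by depth. Without these and D1_CS 4, described next, the shares were 63.4 ± 1.78% in D1_CS (n = 5) and 45.9 ± 11.8% in D1_SS (n = 10), with p = 0.00633 by the exact permutation test and an adjusted p of 0.0759. No pair of libraries held identical counts, but D1_CS 6 and 8 lay close to sampling noise, with a chi-square of 1.51 per degree of freedom over genes, against 2.26 for the next closest pair, D1_CS 5 and 8, 2.89 for D1_CS 5 and 6, and 4.8 or more for every other pair within a group.

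**Figure D1:**
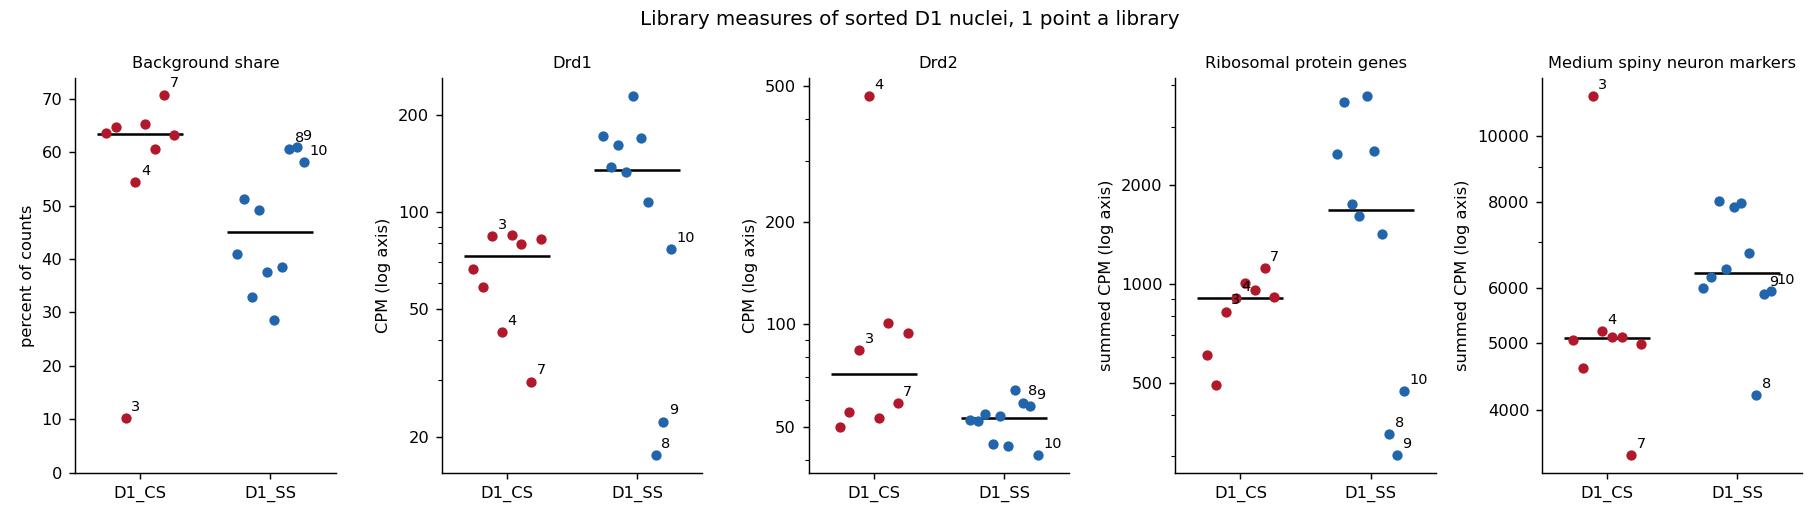
Background share (percent of counts, linear axis) and levels of Drd1, Drd2, summed ribosomal protein genes and summed medium spiny neuron markers (CPM, log axes) in each of 8 D1_CS libraries (left in each panel) and 10 D1_SS libraries (right); lines are medians and digits are replicate numbers. D1_CS 3 has the lowest background share (10.2%), D1_CS 4 the highest Drd2 (465 CPM), and D1_SS 8, 9 and 10 lie on the D1_CS side of their group in background share and below D1_CS in ribosomal protein genes.

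The receptor genes check the sort. Drd1, the D1 receptor gene (ENSMUSG00000021478.6, minus strand, mm10 chr13:54051183-54055705), stood at 29.7, 73.1 and 84.7 CPM in D1_CS (lowest, median and highest library) and at 17.5, 136 and 229 CPM in D1_SS. D1_SS 1 to 7 lay above every D1_CS library, while D1_SS 8 and 9, at 17.5 and 22.3 CPM, lay below every one. The log2 change was -0.93 ± 0.55 (SE). Drd2, the D2 receptor gene (ENSMUSG00000032259.8, plus strand, mm10 chr9:49340627-49408177), ran between 50.04 and 101 CPM in 7 D1_CS libraries and reached 465 CPM in D1_CS 4, against 41.4 to 64.2 CPM in D1_SS. D1_CS 4 goes against its label, with 465 CPM of Drd2 and 42.2 CPM of Drd1; the library labelled D1_CS 4 is kept in all values unless stated. Drd1 exceeded Drd2 in 4 of 8 D1_CS libraries and in 8 of 10 D1_SS libraries. The background density would give 24.5% of Drd2 counts in D1_CS and 49.1% in D1_SS, against 3.08% and 1.565% of Drd1 counts. Counts per base over genes that neighbour Drd1 and Drd2 gave log2 ratios of 1.41 to 2.30 in D1_CS libraries other than D1_CS 4. In D1_SS these ran from 1.480 to 1.825. The part of the background in the receptor ratio was not tested. The log2 ratio of Drd1 to Drd2 was -0.48 ± 1.30 in D1_CS (SD, n = 8) and 0.88 ± 1.36 in D1_SS (SD, n = 10), with p = 0.0450 by the two-sided exact permutation test and an adjusted p of 0.541. In bulk nuclei, fewer nuclei of a kind and less RNA per nucleus cannot be told apart.

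Tac1 and Pdyn, the 2 main peptide genes of D1 neurons, had lower medians in D1_CS, with overlap between the groups. Tac1, which encodes the precursor of substance P, stood at 28.2, 66.1 and 125 CPM in D1_CS and at 9.63, 128 and 271 CPM in D1_SS, a log2 change of -0.95 ± 0.57. Pdyn, which encodes prodynorphin, stood at 27.7, 48.2 and 85.9 CPM in D1_CS and at 18.9, 105 and 209 CPM in D1_SS, a log2 change of -0.91 ± 0.56. In both genes the lowest libraries of all were D1_SS libraries, so the D1_CS values lay inside the range of D1_SS. Of 9 D1 markers, 7 had a negative and 2 a positive log2 change, with a median of -0.76 against 0.06 for all genes. The 2 positive ones were the developmental transcription factors Eya1 (0.15 ± 0.22) and Ebf1 (0.16 ± 0.20). The background density would give 75.4% of the Eya1 counts in D1_CS and 75.8% in D1_SS. For Ebf1 these shares were 65.0% and 61.65%, and for Drd1 3.08% and 1.565%. The 8 D2 markers had a median of 0.10, with 5 above 0. Among them Penk, the enkephalin precursor, ran from 39.8 to 440 CPM in D1_CS and from 12.2 to 612 CPM in D1_SS, and Adora2a, an adenosine receptor, had a log2 change of 0.15 ± 0.40.

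Over all 18 libraries the summed markers of other cell kinds differed by less than the spread between libraries. Interneuron markers summed to 339 ± 79.4 CPM in D1_CS and 309 ± 47.3 CPM in D1_SS, astrocyte markers to 762 ± 150 and 730 ± 74.9 CPM, and oligodendrocyte markers to 453 ± 124 and 461 ± 66.0 CPM, in the same order. Microglia markers summed to 203 ± 34.03 CPM in D1_CS and 194 ± 15.3 CPM in D1_SS, and endothelial and mural markers to 383 ± 111 and 326 ± 65.4 CPM. Every one of the 8 exact permutation tests on these sums had an adjusted p of 0.593 or more over the 12 library measures. In the libraries passing the quality rule endothelial and mural markers summed to 412 ± 19.8 CPM in D1_CS (n = 5) and 326 ± 65.4 CPM in D1_SS (n = 10), with p = 0.0177 by the exact permutation test and an adjusted p of 0.106. No defining marker of these cells was at 0 in all 18 libraries, and the median share of a marker's counts that the background density would give was 68.6% in D1_CS and 64.9% in D1_SS for interneurons and 82.5% and 67.8% for astrocytes. The part of other cells in the results below was not tested.

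Ribosomal protein genes had lower levels in D1_CS than in most D1_SS libraries. They encode the proteins of the cytosolic ribosome, and their transcripts are short, abundant and mostly mature. Of 79 tested, 77 had a negative log2 change and 55 an unadjusted p under 0.05 in that direction, or 69.6%, beside 2.84% of all genes. Their median log2 change was -1.30, against 0.06 for all genes, and 0 passed the adjusted threshold. Their summed level was 608, 496, 824, 903, 1008, 959, 1114 and 915 CPM in D1_CS 1 to 8. In D1_SS 1 to 7 it ran from 1421 to 3703 CPM, and in D1_SS 8, 9 and 10 it was 350, 303 and 474 CPM. All 8 D1_CS libraries thus lay between the 7 high and the 3 low D1_SS libraries.

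Rpl36 (ENSMUSG00000057863.6, plus strand, mm10 chr17:56613416-56614243), a protein of the large ribosomal subunit, stood at 1.498, 5.98 and 7.24 CPM in D1_CS and at 1.43, 15.2 and 35.4 CPM in D1_SS, a log2 change of -1.91 ± 0.57. Rpl35 and Rpl19, also of the large subunit, had log2 changes of -1.77 ± 0.56 and -1.83 ± 0.59. Rpl10a, the gene whose protein carries the fluorescent tag in these mice, stood at 5.79, 10.8 and 15.4 CPM in D1_CS and at 3.98, 23.9 and 43.0 CPM in D1_SS, a log2 change of -1.12 ± 0.51. In each of these the highest D1_CS library lay below the median of D1_SS. Counts on such genes can be shared with their many processed copies, so their levels are uncertain; Rpl39l, a variant copy, had a log2 change of 0.20 ± 0.41.

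Because nearly all of these genes had a change in 1 direction, 2 of their promoters are shown, each of 300 bases (250 before and 50 after the annotated start), from RefSeq on GRCm38.p6. Promoters of ribosomal protein genes are known for a pyrimidine-rich start site. Capitals mark TCTTTC, one form of such a run, searched on both strands (its reverse complement is GAAAGA).

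Rpl35, chr2:39005082-39005381, minus strand: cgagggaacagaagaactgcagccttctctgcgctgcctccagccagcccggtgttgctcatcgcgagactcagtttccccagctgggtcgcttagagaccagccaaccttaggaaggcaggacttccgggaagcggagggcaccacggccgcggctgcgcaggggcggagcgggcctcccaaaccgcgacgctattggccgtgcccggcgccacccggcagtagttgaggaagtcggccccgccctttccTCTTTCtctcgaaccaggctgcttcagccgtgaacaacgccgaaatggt

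Rpl10a, chr17:28328315-28328614, plus strand: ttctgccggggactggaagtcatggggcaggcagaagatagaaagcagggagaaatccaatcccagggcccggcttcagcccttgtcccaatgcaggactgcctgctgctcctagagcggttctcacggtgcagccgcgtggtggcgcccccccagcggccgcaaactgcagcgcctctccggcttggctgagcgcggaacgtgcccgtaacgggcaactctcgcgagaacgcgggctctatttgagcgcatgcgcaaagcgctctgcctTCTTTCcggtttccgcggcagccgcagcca

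Each of these windows held TCTTTC once, near the annotated start; Rpl10a has a second annotated start whose window held none. A promoter was found for 60 of the 79 ribosomal protein genes, and 26 of them held the letters on either strand (43.3%), against 24.5% of all 27025 genes with a promoter. Within 10 bases of the start and on the gene's own strand, 7 of the 60 held them (11.7%), against 0.881% of all genes. This describes the genes and says nothing of how they are controlled here.

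Genes of the mitochondrial respiratory chain had the same direction. Of 97 nuclear genes for its subunits, 88 had a negative log2 change, and the median was -0.84. Of the 97, 50 had an unadjusted p under 0.05 in that direction (51.5%, beside 2.84% of all genes). Their summed level ran from 1397 to 1732 CPM in D1_CS, against 2195 to 3785 CPM in D1_SS 1 to 7 and 1177 to 1470 CPM in D1_SS 8, 9 and 10. Ndufb10, a subunit of complex I (ENSMUSG00000040048.14, minus strand, mm10 chr17:24722060-24724478), stood at 5.69, 8.202 and 10.7 CPM in D1_CS and at 2.68, 27.2 and 47.3 CPM in D1_SS, a log2 change of -1.82 ± 0.57. Uqcrq of complex III and Atp5h of the ATP synthase had log2 changes of -1.91 ± 0.63 and -1.60 ± 0.54. All 31 genes of the mitochondrial genome that were tested had negative log2 changes, with a median of -1.44. Mitochondrial RNA lies outside the nucleus, and its share of all counts was 0.0231 to 0.116% in D1_CS and 0.0189 to 0.391% in D1_SS.

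Other short and abundant messages stood in the same order. Hsp90aa1, an inducible heat shock protein, stood at 40.1, 97.0 and 135 CPM in D1_CS and at 21.2, 299 and 416 CPM in D1_SS, a log2 change of -1.57 ± 0.56. Of 18 heat shock and chaperone genes, 15 had a negative log2 change, with a median of -0.79; Bag3, a co-chaperone, was among the others at 0.26 ± 0.31. Actb, cytoplasmic actin, stood at 41.4, 67.0 and 97.8 CPM in D1_CS and at 10.2, 207 and 414 CPM in D1_SS, a log2 change of -1.54 ± 0.57. Of 25 actin cytoskeleton genes, which shape dendritic spines, 23 had a negative log2 change and the median was -0.40. H2afz, the histone variant H2A.Z, stood at 2.96, 4.88 and 6.11 CPM in D1_CS and at 1.38, 14.8 and 27.3 CPM in D1_SS, a log2 change of -1.65 ± 0.58.

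The 12 genes with the smallest p in each direction, among conventionally named genes whose mean level was at least 1 on the log2 CPM scale, held Rpl36, Rpl35, Rpl19 and Ndufb10 on the lower side. Other genes there were the replication-dependent histone genes Hist1h3e (-2.19 ± 0.68), Hist1h4f (-2.50 ± 0.79) and Hist1h4d (-2.13 ± 0.68), the microtubule regulator Stmn1 (-1.63 ± 0.51), the pseudogene Eif4a-ps4 (-2.004 ± 0.59) and the lipid carrier Apoe (-1.82 ± 0.58). Another was Ttr, transthyretin of the choroid plexus, at 0.749, 5.08 and 7.24 CPM in D1_CS and at 3.21, 4.38 and 88.0 CPM in D1_SS. Its median was the higher one in D1_CS, and 2 libraries, D1_SS 4 and 6 at 66.98 and 88.0 CPM, stood far above the other 8 D1_SS libraries, which reached at most 6.27 CPM. The higher side included Drd2 (1.15 ± 0.50, with the library labelled D1_CS 4 in it), the nuclear noncoding RNA Neat1, the lens channel gene Mip (0.69 ± 0.28), Rnf225, Mpo, Hs3st6, Cyp11b2 and Tdo2. Of these all but Neat1 and Drd2 stood at 12.8 CPM or less in every library. For those low genes, Mip to Tdo2, the background density would give between 59.2% (Rnf225) and 86.3% (Tdo2) of a gene's counts in D1_CS. In D1_SS it would give between 68.0% (Rnf225) and 102.6% (Tdo2). Neat1, which builds nuclear paraspeckles, stood at 13.7, 17.3 and 27.6 CPM in D1_CS and at 9.14, 12.1 and 20.2 CPM in D1_SS, a log2 change of 0.57 ± 0.23. The background density would give 53.6% of Neat1 counts in D1_CS and 56.4% in D1_SS. Its highest value was that of D1_CS 3, and without D1_CS 3 and 4 its log2 change was 0.12 and did not pass. Vmn1r-ps47 (1.75 ± 0.54), Clec2e (1.71 ± 0.54) and Nkap (0.88 ± 0.44) owed their place to D1_CS 3, with 64.7, 43.6 and 90.9 CPM there and at most 8.92, 7.72 and 16.7 CPM in the other D1_CS libraries.

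**Figure D2:**
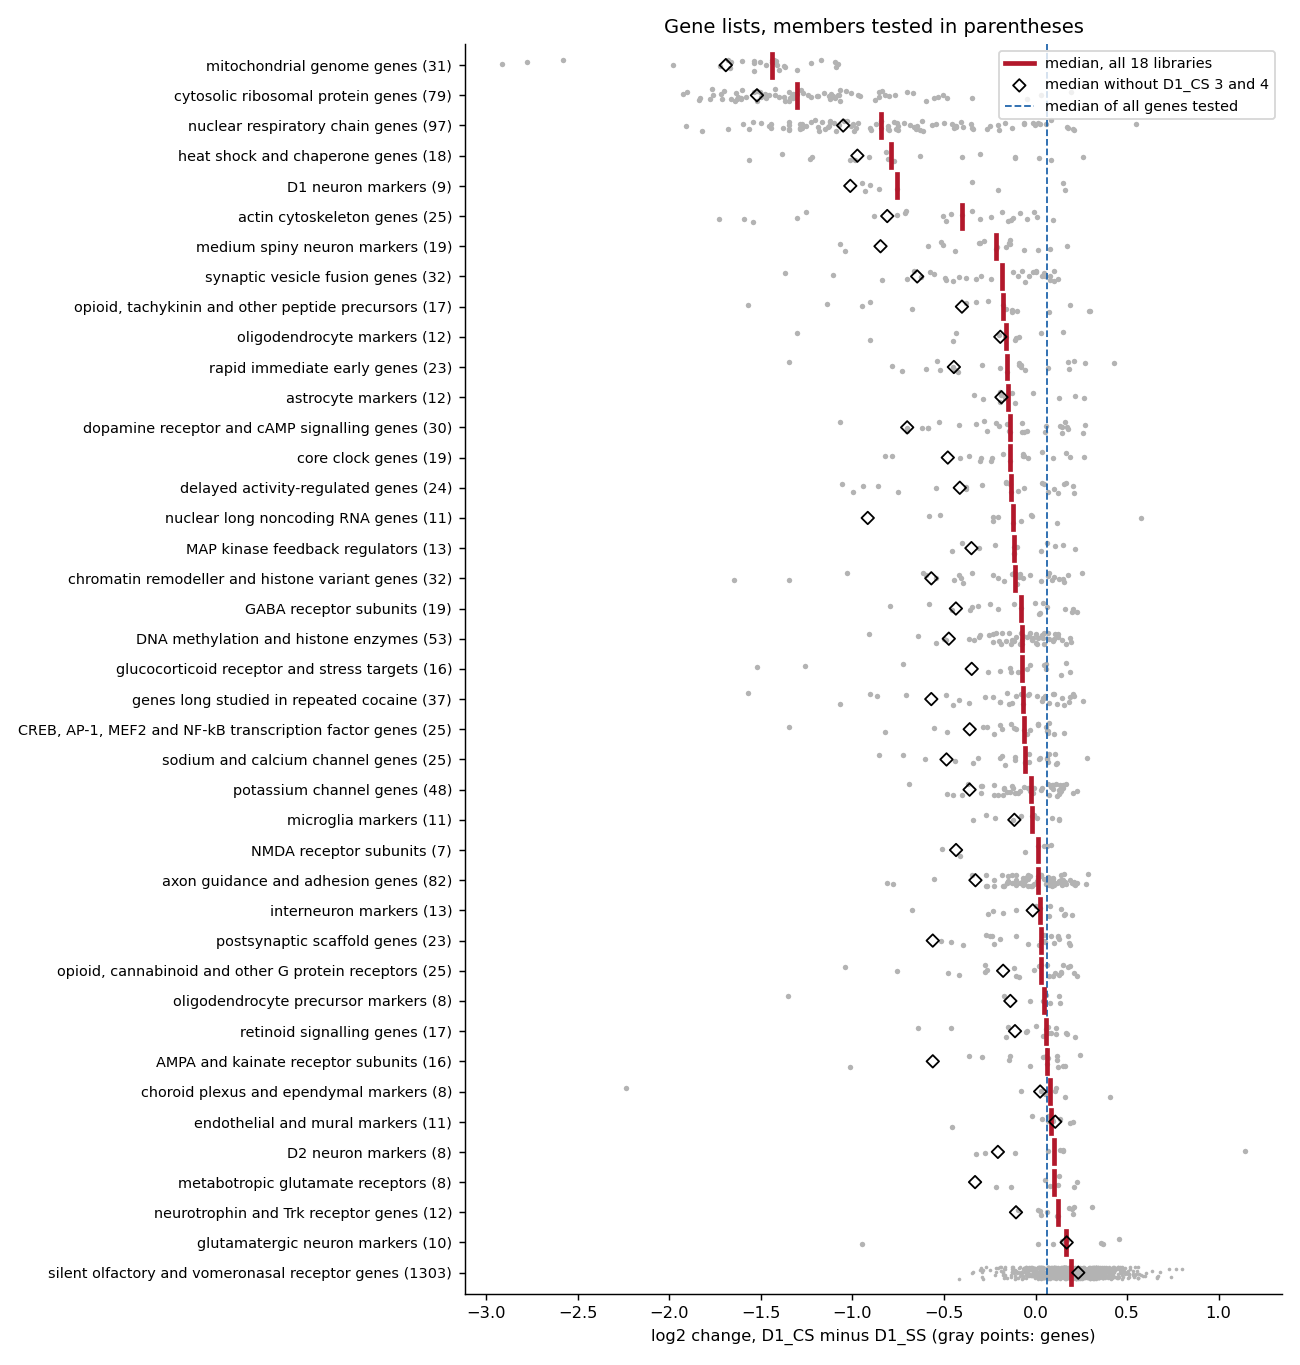
Log2 change (D1_CS minus D1_SS) of every tested member (gray points) of each gene list, with the list's median over all 18 libraries (red bar) and without D1_CS 3 and 4 (open diamond); the dashed line is the median of all genes tested. Mitochondrial genome (-1.44), ribosomal protein (-1.30) and respiratory chain genes (-0.84) lie lowest, and silent receptor genes (0.20) lie highest.

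Levels of the short genes and the background share were set side by side. D1_CS 3, which failed the quality rule, had a background share of 10.2% and 824 CPM of ribosomal protein genes. That sum lay inside the range of the 7 D1_CS libraries between 54.4 and 70.7%. Across the 18 libraries the 7 with the highest summed ribosomal level, D1_SS 1 to 7, had background shares between 28.6 and 51.2%. D1_SS 8, 9 and 10, at 350, 303 and 474 CPM, had shares of 60.5, 61.0 and 58.2%. The part of the background in these sums was not tested. Silent receptor genes, which set the background share, had a median log2 change of 0.20, with 1178 of 1303 above 0. With the background share as a covariate the 37-library fit also called 0 genes, and with the background subtracted it called 0 of 28229. In the fit with the covariate the median log2 change of ribosomal protein genes was -0.75, that of respiratory chain genes -0.36 and that of heat shock and chaperone genes -0.14. Without D1_CS 3 and 4 these 3 medians were -1.52, -1.05 and -0.97 with no covariate and 0.25, 0.11 and 0.37 with it. In those 16 libraries the background share ran from 60.6 to 70.7% in D1_CS and from 28.6 to 61.0% in D1_SS. Group and background share can thus hardly be told apart there, with or without the covariate. Of the 3 lists, 17 of 79 (21.5%), 53 of 96 (55.2%) and 4 of 18 (22.2%) fell in the fit of those 16 libraries with no covariate, beside 14.7% of all genes.

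**Figure D3:**
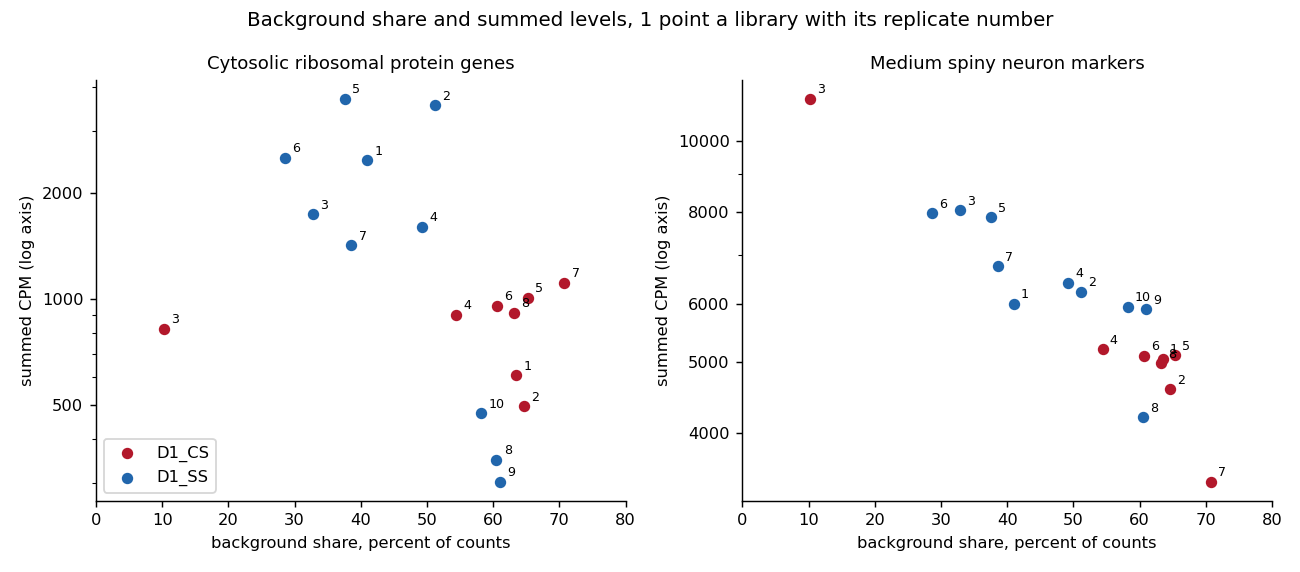
Background share (percent of counts) against summed CPM (log axis) of ribosomal protein genes (left) and medium spiny neuron markers (right), 1 point for each D1_CS and D1_SS library with its replicate number. The ribosomal sums of D1_CS, at 496 to 1114 CPM, lie between those of D1_SS 1 to 7 and of D1_SS 8 to 10, and D1_CS 3 has the highest sum of medium spiny neuron markers, 11400 CPM.

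In long neuronal genes 1 library stood far above the rest. The 19 medium spiny neuron markers summed to 11400 CPM in D1_CS 3 and to 3438 to 5202 CPM in the other 7 D1_CS libraries, against 4205 to 8042 CPM in D1_SS. Gria1, an AMPA receptor subunit (ENSMUSG00000020524.16, plus strand, mm10 chr11:57011387-57330244), stood at 473, 642 and 2094 CPM in D1_CS and at 628, 841 and 1057 CPM in D1_SS, and the highest value was that of D1_CS 3. Its log2 change was 0.12 ± 0.37. Pde10a, the striatal phosphodiesterase, had 2650 CPM in D1_CS 3 and at most 744 CPM in the other D1_CS libraries, against 742 to 1222 CPM in D1_SS. Npas2, a partner of the clock protein BMAL1, had 627 CPM in D1_CS 3 and at most 207 CPM in the others, against 202 to 291 CPM in D1_SS. Protein-coding genes with a span over 300 kb had a median log2 change of 0.12 over all libraries and -0.13 without D1_CS 3 and 4.

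Leaving out D1_CS 3 changed the count of called genes. In the fit of the 18 libraries alone edgeR called 0 genes, and 0 again when any other single library was left out; without D1_CS 3 it called 6076 of 37213, of which 400 rose and 5676 fell. Without D1_CS 3 and D1_CS 4 it called 5921 of 37065, of which 454 rose (1.22% of genes) and 5467 fell (14.7%), and DESeq2 called 8846 on the same 16 libraries. In that fit with the background share, which nearly divided the groups there, as a covariate edgeR called 0 genes, with 1286 at an unadjusted p under 0.05. With the background subtracted it called 893 of 25668, 41 that rose and 852 that fell. With D1_CS 7 left out as well, the 15 libraries gave 198 genes that fell and 0 that rose. In the fit of all 37 D1 libraries, removing every D1 library that failed the quality rule left 0 genes called. The fits of this paragraph that drop libraries from the 18 alone were added after the data were seen.

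**Figure D4:**
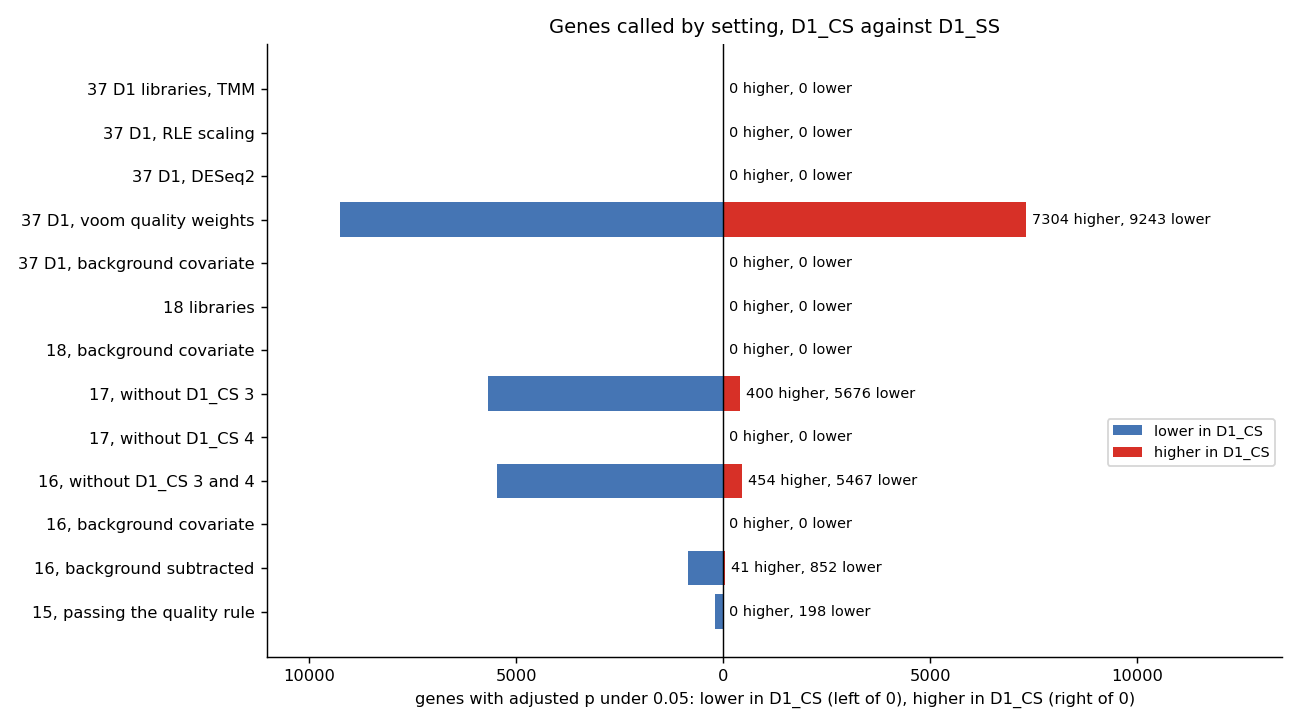
Genes with an adjusted p under 0.05 between D1_CS and D1_SS (higher in D1_CS to the right of 0, lower to the left) by setting, with the number of libraries in the fit. The count is 0 over all 37 D1 libraries with TMM or RLE scaling or DESeq2, 16547 with limma voom quality weights, and 6076 in the 17 libraries without D1_CS 3.

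The 16 libraries without D1_CS 3 and 4 held the following genes, in a fit where 14.7% of all genes fell and the median log2 change was -0.02. These statements stand for that fit alone, and none of the genes passed over all libraries in edgeR or DESeq2. Limma voom with library quality weights, which called 16547 genes, had Pde10a, Ptpn5, Foxp1 and Eya1 among them. Of 19 medium spiny neuron markers, 14 fell (73.7%) and 0 rose. Pde10a had a log2 change of -0.80 ± 0.15 (edgeR adjusted p = 0.0166), Ptpn5, the striatal tyrosine phosphatase STEP, of -0.92 ± 0.25 (0.0314), and Foxp1, a transcription factor of striatal neurons, of -0.43 ± 0.13 (0.0377). Of 9 D1 markers, Eya1 rose by 0.21 ± 0.07 (0.0472) on the log2 scale and 1 other, Sfxn1, fell. Most Eya1 counts were at the background density, and with the background share as a covariate its log2 change was 0.05 and did not pass. Drd1 itself had a log2 change of -1.21 ± 0.49 with no covariate and did not pass, with an adjusted p of 0.0811. The background share in this fit, 60.6 to 70.7% in D1_CS and 28.6 to 61.0% in D1_SS, nearly divided the groups. With the share as a covariate the median of the medium spiny neuron markers was 0.02, against -0.85 with no covariate. That of the D1 markers was 0.62, against -1.01. Group and background share can hardly be told apart here, nor in the covariate values of the 16 libraries below.

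Genes of dopamine and cAMP signalling showed the same picture. Of 30, 17 fell without D1_CS 3 and 4 (56.7%, beside 14.7% of all genes). Over all libraries edgeR called 0 of them, and their median log2 change was -0.14. Their median without D1_CS 3 and 4 was -0.70, and it was -0.10 with the background share as a covariate. Ppp1r1b, which encodes the dopamine-regulated phosphatase inhibitor DARPP-32 (ENSMUSG00000061718.12, plus strand, mm10 chr11:98348404-98357796), stood at 37.7, 57.4 and 84.2 CPM in D1_CS and at 16.2, 139 and 244 CPM in D1_SS, a log2 change of -1.07 ± 0.53. Without D1_CS 3 and 4 it was -1.51 ± 0.51, with an adjusted p of 0.0509. Prkacb and Prkar1a, a catalytic and a regulatory subunit of protein kinase A, fell in that fit by 0.93 and 1.20 on the log2 scale (adjusted p = 0.0458 and 0.0462). Drd3, the D3 receptor, stood at 59.1, 71.5 and 121 CPM in D1_CS and at 52.4, 67.4 and 79.6 CPM in D1_SS, a log2 change of 0.26 ± 0.27 over all libraries.

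Glutamate receptor genes did not separate the groups over all libraries. The 16 AMPA and kainate receptor genes had a median log2 change of 0.06, the 7 NMDA receptor genes of 0.01 and the 8 metabotropic receptor genes of 0.10, beside 0.06 for all genes. Gria2, the subunit that makes AMPA receptors impermeable to calcium, stood at 164, 611 and 752 CPM in D1_CS and at 274, 738 and 951 CPM in D1_SS, a log2 change of -0.36 ± 0.37. Grm5, the group I receptor mGlu5, had a log2 change of 0.05 ± 0.37. Without D1_CS 3 and 4, 8 of the 16 AMPA and kainate genes fell (50%, beside 14.7% of all genes). Their list had a median of -0.56 there, and of -0.185 with the background share as a covariate. With no covariate Gria1 stood at -0.76 ± 0.15 (edgeR adjusted p = 0.0186), and Cnih2, an AMPA receptor auxiliary protein, at -1.40 ± 0.35 (0.0283). Grm5 fell by 0.78 (0.0353), and of the NMDA genes Grin1 fell by 0.95 (0.0338) and Grin2b by 0.52 (0.0314), on the log2 scale. For Gria1 and Grm5 the direction over all libraries was thus the opposite of that without these 2 libraries.

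Genes of synaptic machinery and of ion channels also had calls in the fit without D1_CS 3 and 4. Of 23 postsynaptic scaffold genes, 16 fell without D1_CS 3 and 4 (69.6%), with a median log2 change of -0.56 there and 0.03 over all libraries; Camk2b, a kinase subunit of the postsynaptic density, stood at -1.11 ± 0.19 (adjusted p = 0.0155) and -0.52 ± 0.38 in these fits. Of 32 synaptic vesicle fusion genes, 22 had a negative log2 change over all libraries, with Rab3a (-1.37 ± 0.60) and Vamp2 (-1.10 ± 0.53) lowest, and 17 fell without D1_CS 3 and 4 (53.1%). Of 48 potassium channel genes 23 fell there (47.9%) and of 25 sodium and calcium channel genes 15 did (60%), among them the calcium channel subunit gene Cacnb1 by 1.08 on the log2 scale (adjusted p = 0.0253). Among 82 axon guidance and adhesion genes 25 fell (30.5%, beside 14.7% of all genes) and 1 rose. With the background share as a covariate in the 16 libraries the scaffold genes had a median of -0.24 and the vesicle fusion genes of -0.08. Potassium channel genes had one of -0.09 there, sodium and calcium channel genes of -0.08 and axon guidance and adhesion genes of -0.05.

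**Figure D5:**
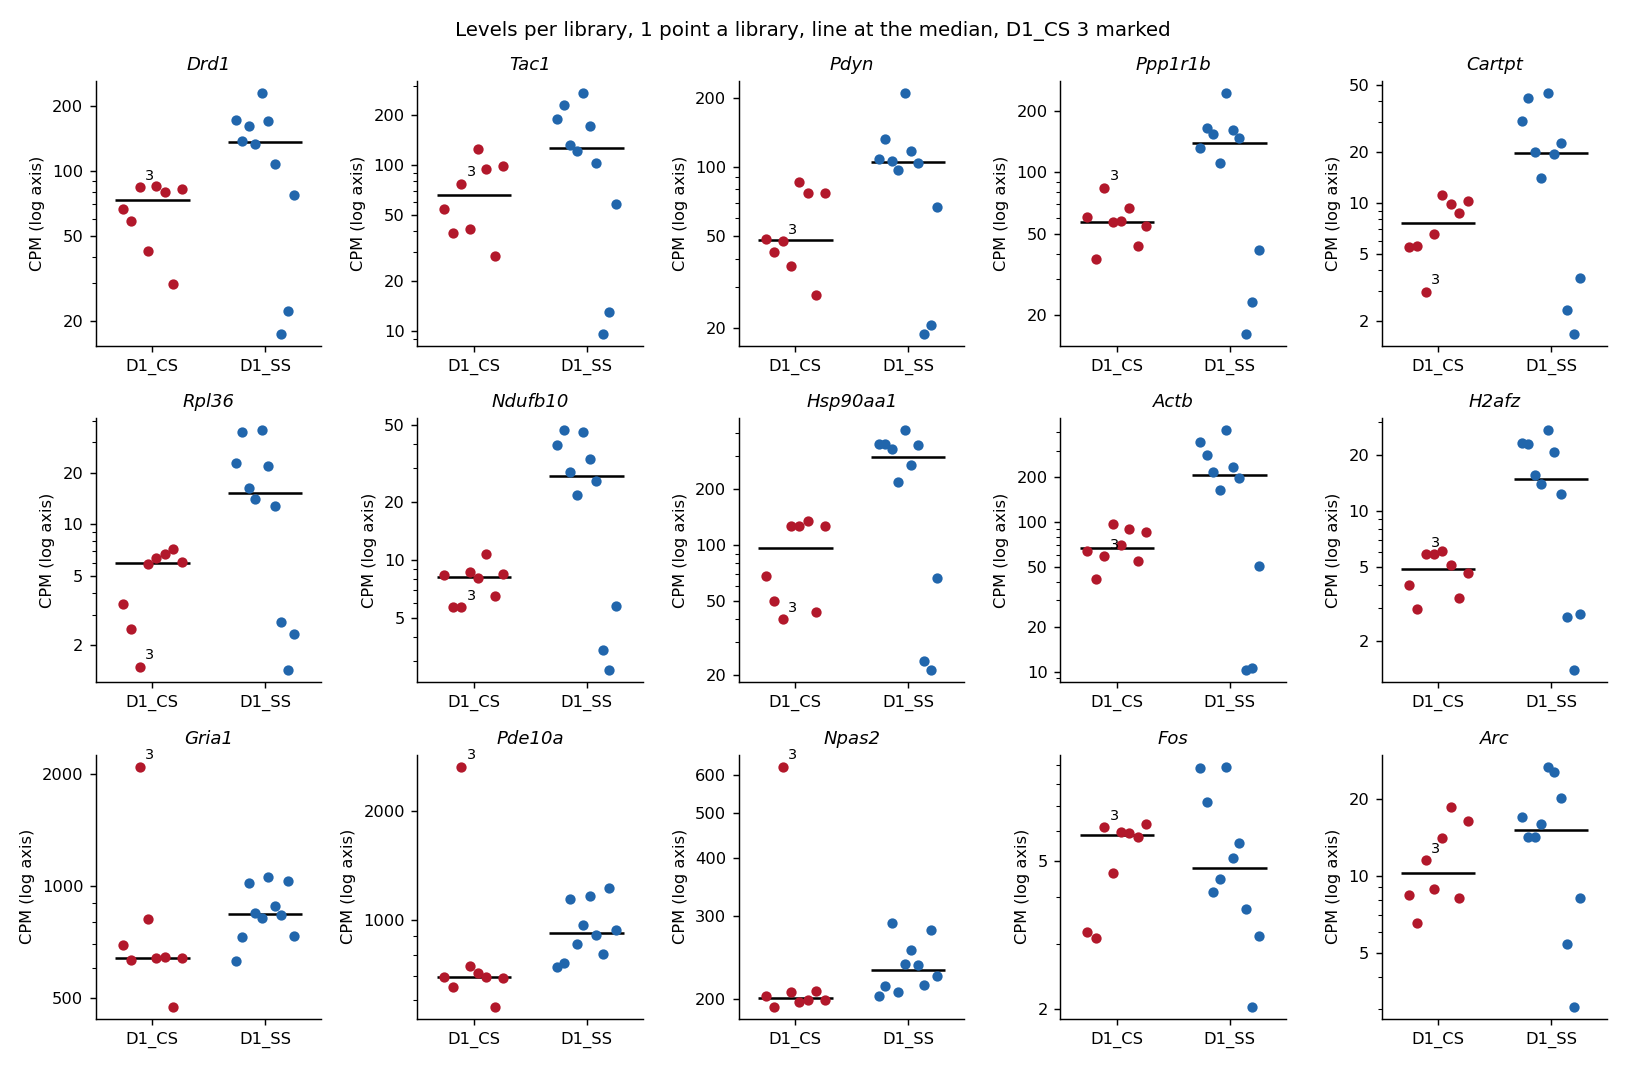
CPM (log axes) of 15 genes in each D1_CS library (left in each panel) and each D1_SS library (right), with medians as lines and D1_CS 3 marked. In Rpl36, Ndufb10, Hsp90aa1, Actb and H2afz every D1_CS library lies below D1_SS 1 to 7, and in Gria1, Pde10a and Npas2 D1_CS 3 lies far above all others.

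Activity-regulated genes, which neurons switch on within minutes to hours of stimulation, had no clear difference 1 h after saline. Of 23 rapid immediate early genes, 6 had a positive and 17 a negative log2 change over all libraries, with a median of -0.16. In edgeR 0 passed with or without D1_CS 3 and 4. Fos, a subunit of the AP-1 transcription factor, stood at 3.11, 5.86 and 6.27 CPM in D1_CS and at 2.03, 4.78 and 8.93 CPM in D1_SS, a log2 change of -0.09 ± 0.46. Fosb, whose truncated product deltaFosB is known to build up with repeated cocaine, stood at 3.60, 5.70 and 9.05 CPM in D1_CS and at 3.46, 6.03 and 8.997 CPM in D1_SS, a log2 change of -0.19 ± 0.42. Gene counts do not separate its splice forms. Arc, a cytoskeletal protein that removes AMPA receptors from synapses, stood at 6.52, 10.2 and 18.6 CPM in D1_CS and at 3.07, 15.1 and 26.7 CPM in D1_SS, a log2 change of -0.45 ± 0.49. The nuclear receptor genes Nr4a1 (-0.08 ± 0.38) and Nr4a3 (0.43 ± 0.36), and Npas4 (-0.29 ± 0.35) and Egr3 (-0.16 ± 0.53) had values that did not pass either. Jund, an AP-1 member, had the lowest value of the list, -1.34 ± 0.60. With SEs of this size, small changes of single immediate early genes were not detectable at this number of libraries.

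Of 24 delayed activity-regulated genes, 9 had a positive and 15 a negative log2 change. Only 1, Inhba, a subunit of activin, fell without D1_CS 3 and 4 (4.17%, under the 14.7% of all genes). Bdnf, brain-derived neurotrophic factor, stood at 5.24, 24.1 and 28.4 CPM in D1_CS and at 11.6, 17.7 and 24.6 CPM in D1_SS, a log2 change of 0.21 ± 0.32. Rgs2, a brake on G protein signalling, and Plk2, a synaptic kinase, had log2 changes of -1.06 ± 0.52 and -0.94 ± 0.50. Of 13 feedback regulators of MAP kinase signalling, 2 fell without D1_CS 3 and 4 (15.4%, close to the 14.7% of all genes), Spred2 by 0.35 and Spred3 by 0.73 on the log2 scale (edgeR adjusted p = 0.0313 and 0.0155).

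Of 37 genes long studied in repeated cocaine, 16 had a positive and 21 a negative log2 change over all libraries, with a median of -0.07. Cartpt, the precursor of cocaine- and amphetamine-regulated transcript peptide (ENSMUSG00000021647.7, minus strand, mm10 chr13:99898489-99901091), stood at 2.996, 7.62 and 11.2 CPM in D1_CS and at 1.69, 19.9 and 44.6 CPM in D1_SS, a log2 change of -1.57 ± 0.63. D1_SS 1 to 7 lay above every D1_CS library. Cdk5, a kinase known as a deltaFosB target, had a log2 change of -0.87 ± 0.41 over all libraries and fell by 1.15 without D1_CS 3 and 4 (adjusted p = 0.0293). Of 17 peptide precursors 13 had a negative log2 change, Nts (neurotensin) at -1.14 ± 0.50 among them, and 0 passed in either fit. Oprk1, the kappa opioid receptor that dynorphin acts on, stood at 14.7, 23.6 and 41.5 CPM in D1_CS and at 14.0, 31.5 and 40.8 CPM in D1_SS, a log2 change of -0.27 ± 0.40; it fell by 0.73 without D1_CS 3 and 4 (0.0435).

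Lists of chromatin genes had small median changes over all libraries. The 53 enzymes of DNA methylation and histone modification had a median log2 change of -0.07 and the 32 chromatin remodellers and histone variants one of -0.11, with single members as low as -0.91 and -1.65 (H2afz, above). Of the 32, 3 had a lower level at an unadjusted p under 0.05 (9.38%, beside 2.84% of all genes). Without D1_CS 3 and 4, 37 (69.8%) and 23 (71.9%) of them fell and 0 rose. Prmt1, an arginine methyltransferase, Kat2a, a histone acetyltransferase, and Hdac2, a histone deacetylase, fell there by 1.08, 0.94 and 0.91 on the log2 scale (adjusted p = 0.0364, 0.0314 and 0.0406). H3f3a, one of the 2 genes of histone H3.3, had a log2 change of -1.03 ± 0.42 over all libraries and fell by 1.37 without these 2 (0.0345). Baz1a, a remodeller subunit, had a log2 change of 0.16 ± 0.19. Without D1_CS 3 and 4 the medians of the 53 and the 32 genes were -0.47 and -0.57. They were -0.06 and -0.01 with the background share as a covariate. Of 19 core clock genes, 14 had a negative log2 change and 11 fell without D1_CS 3 and 4 (57.9%, beside 14.7% of all genes). Dbp, an output gene of the clock, fell there by 1.28 (edgeR adjusted p = 0.0379). The median of the 19 was -0.48 in that fit and 0.08 with the background share as a covariate.

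D2 nuclei of the same treatments were used to ask whether the change differed between the lines. The D1 change minus the D2 change was tested over all 75 libraries, with 10 D2_CS and 9 D2_SS libraries, and 35 of 39250 genes passed (0.0892% of genes), all with a lower change in D1. In 31 of the 35 the highest D2_CS value came from a D2_CS library that failed the quality rule, which 5 of the 10 did, and 0 genes passed without failing libraries. Hoxc12, a homeobox gene of the posterior body, had a difference of -7.21 ± 1.19 (adjusted p = 0.00133), with 321 CPM in D2_CS 4, against a median of 0.445 CPM in D2_CS and of 0.643 and 0.446 CPM in D1_CS and D1_SS. Drd1, Ppp1r1b and Rpl36 had differences of -1.59, -1.52 and -1.47 with adjusted p of 0.814, 0.812 and 0.871. Within D2, 405 genes rose and 2 fell between D2_CS and D2_SS (1.04% of genes). This count and the D2 medians that follow come from a fit that held the failing libraries. D2_CS 6 and D2_CS 9 were among them, with totals of 26297 and 19980 counts. Neither the count nor the medians were tested without them. The median log2 change of ribosomal protein genes was -1.30 in D1 and -0.31 in D2, and that of medium spiny neuron markers -0.22 and 0.31. D2 nuclei thus had smaller or opposite medians in these lists, but no member of either list passed the test of the difference.

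The other cocaine groups of the D1 line share the D1_SS libraries with this comparison, so the values are only set side by side. The median log2 change of ribosomal protein genes was -1.30 in D1_CS, -0.56 in D1_SC (repeated saline, cocaine challenge) and 0.58 in D1_CC (repeated cocaine, cocaine challenge), each against D1_SS. Medium spiny neuron markers had medians of -0.22, 0.96 and 0.65 in the same order, and rapid immediate early genes of -0.16, 0.46 and 1.01. The background share ran from 5.65 to 59.2% in D1_SC and from 4.04 to 64.8% in D1_CC, and 4 of 9 D1_SC and 3 of 10 D1_CC libraries failed the quality rule; the part of these library differences in the medians was not tested.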

How the data were processed

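The 2 deposited tables, one of counts and one of FPKM per the file headers, covered 55401 genes, and each of the 75 columns carried the name of one sample. The submitters' processing notes name featureCounts, DESeq2 and the mm10 build, whereas the aligner, the annotation, tool versions and how strand was handled are not given in the sources used here. Raw counts, as the authors deposited them, entered every test. Deposited FPKM matched counts divided by the total and by the full gene span of GENCODE M21 (54271 of 54271 identifiers compared, within 1 base or 0.001 of the length) and were used only for these lengths. Symbols and coordinates came from GENCODE M21, with 55141 identifiers matched without regard to version. Genes that overlap others, and families with near-identical copies, are uncertain because the counting of strand was not given.

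The 37 D1 libraries were fitted in R 4.3.3 by edgeR 4.0.16, using TMM scaling, filterByExpr and the quasi-likelihood test, p adjusted by Benjamini-Hochberg across every tested gene, a threshold of 0.05 and two-sided p-values. The difference between lines used all 75 libraries. Values in parentheses after a first adjusted p are adjusted p-values of the same fit. Log2 changes are those of the fit, with SE from the change and its test statistic and CPM scales each library's counts to a total of 1000000. DESeq2 1.42.0 and limma 3.58.1 were alternatives, and fits were tested on simulated data. The median total of the 18 libraries was 16130425 counts. Dixon's test at its 95% critical value looked for single libraries apart from their group. Library measures were compared by two-sided exact permutation tests over 43758 arrangements, or 3003 without failing libraries. A library failed a quality rule by a total under its line's median divided by 3, by few detected genes or a low correlation (each more than 4 scaled MADs, median absolute deviations, under that of its line), or by a Drd1 to Drd2 ratio on the other line's side.

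The comparison, the gene lists, the quality rule and the tests were chosen with earlier results of these data known. Genes named were, by rule, the 12 with the smallest p per direction where fewer passed (conventional symbol, mean log2 CPM at least 1), up to 3 members of each list per direction by p, and fixed genes of dopamine, peptide, glutamate and activity signalling; Gm16433, Gm44237, Gm49331, Sfxn1, Inhba and the genes of the difference between lines were named by their place in a count. Of those the rule gave, the text names a part, and a few are not reported here.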

Additional observations from a re-analysis of the deposited data

Results flagged for a closer look

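Of 56 groups of 8 or 10 values checked for a library far from the rest, 7 held one, where chance alone gives about 1 in 20. D1_CS 3 stood apart from the other D1_CS libraries in 5 of them: its background share was lowest at 10.2%, its share of counts in genes over 100 kb was highest at 60.1%, its medium spiny neuron markers summed to 11400 CPM, its actin cytoskeleton genes to 1996 CPM, and Gria1 stood at 2094 CPM. D1_CS 4 stood apart in the other 2, with the lowest log2 ratio of Drd1 to Drd2, -3.46, and the highest Drd2, 465 CPM. Its counts over the genes that neighbour Drd1 and Drd2 gave a log2 ratio of -0.44, against 1.41 to 2.30 in the other 7 D1_CS and 1.480 to 1.825 in the 10 D1_SS libraries. No D1_SS library was flagged by Dixon's test, which looks for 1 library apart and cannot flag several that lie together. D1_SS 8, 9 and 10 lay together at 350, 303 and 474 CPM of ribosomal protein genes, against 1421 to 3703 CPM in D1_SS 1 to 7.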

How the results depend on the processing

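The count of genes called between D1_CS and D1_SS stayed at 0 in 27 of the 28 alternatives planned, 18 of which left out 1 library; limma voom with library quality weights called 16547. In the fit of the 18 libraries, leaving out 1 library gave 0 to 6076 genes, with D1_CS 3 behind the 6076. Other alternatives added after the data were seen gave 5921 genes without D1_CS 3 and 4, 8846 with DESeq2 on these 16 libraries, 893 with the background subtracted, 0 with the background share as a covariate and 198 in the 15 libraries passing the quality rule. For the difference between lines the count of 35 became 7 with RLE scaling, 3 with DESeq2, 55 with no filter on low counts, 37 with the background share as covariate, and 0 with CS and SS libraries only or without failing libraries. Without failing libraries the difference of D1_CS minus D1_SS changed sign for total counts (3527000, against -297200 with all) and for the summed CPM of astrocyte (-0.759, against 32.3), oligodendrocyte (31.1, against -8.41) and choroid plexus and ependymal markers (3.94, against -2.19); none passed. With limma voom quality weights 8 genes with a positive log2 change were called with a negative one: Nkap (-0.32), Npas2 (-0.38), Foxp1 (-0.27), Grin2b (-0.30), Snhg14 (-0.43), Gria1 (-0.53), Pde10a (-0.57) and Grm5 (-0.55). The cause of these moves was not tested. Replicate numbers 1 to 8 occur in both groups, but same-numbered libraries deviated together in 3 of 8 pairs only (correlation over 0.1, range -0.43 to 0.49). Of the 8, 1 correlated best with its own number. The planned fit with the replicate block left out D1_SS 9 and 10 and called 0 genes, with 6723 at an unadjusted p under 0.05. In it the block and the loss of these libraries cannot be told apart. Depth limits low genes most, and D1_CS 7, with 4146700 counts, has the least precise levels.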

Other observations

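Of 12 oligodendrocyte markers 10 and of 8 precursor markers 3 had a negative log2 change over all libraries, with medians of -0.16 and 0.05. The lists' members with the smallest p included Cnp, a myelin gene, and Olig1, a transcription factor of the lineage that stood at 0.427 to 1.498 CPM in D1_CS and 0.637 to 4.75 CPM in D1_SS, with log2 changes of -0.90 ± 0.38 and -1.35 ± 0.58. In the 16 libraries without D1_CS 3 and 4, 2 of 12 oligodendrocyte and 1 of 8 precursor markers fell, beside 14.7% of all genes; Cnp and Olig1 were among them, by 1.08 and 1.58 on the log2 scale (edgeR adjusted p = 0.0313 and 0.0339). Neither passed over all libraries, and the summed oligodendrocyte markers differed by -8.41 CPM.

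Genes of stress hormone signalling went in both directions. Of 16, 6 had a positive and 10 a negative log2 change over all libraries. Mt1, a metallothionein, and Ddit4, an inhibitor of mTOR signalling, had the lowest, -1.52 ± 0.60 and -1.26 ± 0.50. Nr3c2, the mineralocorticoid receptor, and Sgk1, a kinase induced by corticosteroids, had log2 changes of 0.19 ± 0.24 and 0.14 ± 0.30. Of the 16, 3 fell without D1_CS 3 and 4 (18.8%, beside 14.7% of all genes), Ddit4 by 1.39 (edgeR adjusted p = 0.0415), Sgk1 by 0.42 (0.0390) and Nr3c2 by 0.28 (0.0388).

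Long noncoding RNAs of the nucleus mostly had lower values. Of 11, 9 had a negative log2 change, and 7 fell without D1_CS 3 and 4 (63.6%, beside 14.7% of all genes). Snhg14, the host transcript of the Prader-Willi small nucleolar RNAs, fell there by 0.58, Kcnq1ot1, an imprinted antisense RNA, by 0.63 and Miat by 0.92 (edgeR adjusted p = 0.0199, 0.0412 and 0.0405). The median of the 11 was -0.92 in that fit and -0.17 with the background share as a covariate. Snhg14 reached 1963 CPM in D1_CS 3 and stood between 772 and 1070 CPM in D1_SS. Of 12 neurotrophin and Trk receptor genes, 11 had a positive log2 change over all libraries (91.7%, beside 60% of all genes). Their median was 0.12 beside 0.06 for all genes, and -0.11 without D1_CS 3 and 4, where 1 fell and 0 rose. The background density would give a median of 64.6% of such a gene's counts in D1_CS and 60.0% in D1_SS.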
